A study of Mus musculus with 45 samples.

Results

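The genes described here are the 8 mouse genes Slc10a2, Fabp6, Slc51a, Slc51b, Nr1h4, Fgf15, Nr0b2 and Gpbar1, which carry bile acids through intestinal cells or pass on a bile acid signal. They were chosen by symbol and make up 8 of the 47729 genes in the expression tables. 6 of them were among the 14020 genes with enough reads for a test, set here as over 5 reads in 6 or more of the 45 libraries. The libraries are bulk RNA-seq of tuft cells, sorted by flow cytometry from the small intestine as EpCAM+CD45+ Siglec-F+ cells and amplified with the Smart-seq2 protocol, 1 mouse per library. All mice were male C57BL/6J, 5 weeks old on arrival and kept at 30 °C in cages of 4. After 1 week on chow they received either a reference diet with 10% fat (RFD) or a diet with 60% fat (HFD). The short set, STF, holds 11 RFD and 11 HFD mice fed for 9 weeks, and the long set, LTF, holds 11 RFD and 12 HFD mice fed for 22 weeks. The longer time was taken from the feeding protocol, since the sample labels read 9 weeks in both sets. Cells came from 20 cm of small intestine starting 1 cm below the stomach. HFD was compared with RFD within each set, which asks how the levels of these genes differ between the diets at each feeding time.

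Bile acids are made in the liver, act in the gut as detergents for fat, and are taken back mostly in the ileum, the last part of the small intestine. There Slc10a2 (the apical sodium-dependent bile acid transporter) takes them into the enterocyte, Fabp6 (the ileal bile acid-binding protein) holds them in the cytosol, and Slc51a with Slc51b, the alpha and beta chains of an obligate transporter pair, lets them out to the blood. Inside the cell they bind FXR, the nuclear receptor encoded by Nr1h4. FXR switches on Fgf15, a hormone that lowers bile acid synthesis in the liver, and Nr0b2, which encodes SHP, a repressor that lacks a DNA-binding domain. Gpbar1 encodes TGR5, a bile acid receptor in the cell membrane. Tuft cells, the cells sorted here, are chemosensory epithelial cells and not the classical site of this pathway.

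All 8 genes are protein coding. On GRCm38, by GENCODE M21, they lie at chr8:5083219-5105351 (Slc10a2, minus strand), chr11:43596049-43601540 (Fabp6, minus), chr16:32474504-32487879 (Slc51a, minus), chr9:65412714-65422955 (Slc51b, minus), chr10:89454234-89533585 (Nr1h4, minus), chr7:144896531-144900953 (Fgf15, plus), chr4:133553376-133556536 (Nr0b2, plus) and chr1:74278550-74279624 (Gpbar1, plus). Exons of Slc51a overlap those of Pcyt1a on the other strand over 567 bases, those of Slc51b overlap Rasl12 over 91 bases, and those of Fgf15 overlap Gm26793 and Gm39119 over 787 bases. Strand is not kept by this protocol, so reads from those bases cannot be told apart. Of all 50-base words in the transcripts of a gene, 16.2% were shared with another gene for Slc51a, 6.52% for Slc51b and 21.3% for Fgf15. The share was 1.24% for Slc10a2 and 0 for Fabp6, Nr1h4, Nr0b2 and Gpbar1. Pcyt1a itself, which encodes an enzyme of phosphatidylcholine synthesis, was read in all 45 libraries at group medians of 36.0 to 48.3 CPM, reads scaled to a library of standard size.

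FXR binds best to an inverted repeat of AGGTCA with a spacer of 1 base, spelled AGGTCANTGACCT. The 250 bases before the RefSeq start of 7 of the 8 genes were found in the promoters of GRCm38.p6. They were searched for this repeat, which reads the same on both strands. RefSeq and GENCODE starts differ for some genes. The stretches of Slc10a2, Slc51b and Gpbar1 lie partly, and that of Nr1h4 wholly, inside the GENCODE loci given above. 4 of these stretches are shown because FXR is known to act on these genes in the ileum: Fabp6 at chr11:43601563-43601812, Slc51a at chr16:32487880-32488129, Slc51b at chr9:65422774-65423023 and Nr0b2 at chr4:133553126-133553375. They are written 5′ to 3′ on the strand of the gene. Capitals mark the best match to the repeat, or both where 2 are equally good, if it has at most 3 mismatches, any exact AGGTCA on either strand, and TATAAA.
Fabp6: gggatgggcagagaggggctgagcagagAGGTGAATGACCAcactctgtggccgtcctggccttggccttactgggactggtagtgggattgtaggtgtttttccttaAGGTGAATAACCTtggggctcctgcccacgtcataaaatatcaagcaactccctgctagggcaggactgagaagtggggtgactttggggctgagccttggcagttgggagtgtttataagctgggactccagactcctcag
Slc51a: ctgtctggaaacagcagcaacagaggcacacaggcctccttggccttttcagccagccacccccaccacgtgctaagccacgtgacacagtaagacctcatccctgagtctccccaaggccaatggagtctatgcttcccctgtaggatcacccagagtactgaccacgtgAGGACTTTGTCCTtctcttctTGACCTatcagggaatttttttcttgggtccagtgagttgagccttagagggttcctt
Slc51b: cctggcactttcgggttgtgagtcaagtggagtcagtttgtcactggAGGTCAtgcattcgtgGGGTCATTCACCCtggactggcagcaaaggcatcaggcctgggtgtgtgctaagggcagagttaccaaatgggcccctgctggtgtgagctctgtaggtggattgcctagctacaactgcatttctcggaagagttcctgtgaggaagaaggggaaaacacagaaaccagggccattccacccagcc
Nr0b2: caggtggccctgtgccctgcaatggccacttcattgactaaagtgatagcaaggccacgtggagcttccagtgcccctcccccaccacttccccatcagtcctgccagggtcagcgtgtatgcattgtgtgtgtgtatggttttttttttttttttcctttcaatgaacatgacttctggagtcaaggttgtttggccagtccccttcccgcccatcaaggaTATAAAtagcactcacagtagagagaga
The Fabp6 stretch holds 2 equally good matches with 2 mismatches each, which begin 222 and 142 bases before the RefSeq start. A match with at most 2 mismatches is found in 0.959% of the 32851 promoters of the same length. The best matches of Slc51a and Slc51b have 3 mismatches, 79 and 187 bases before the RefSeq start, a distance of letters that 9.63% of all promoters reach. In Slc51a the capitals also mark 1 AGGTCA on the opposite strand, and in Slc51b 1 on the strand shown. AGGTCA is present on either strand in 14% of promoters. The Nr0b2 stretch holds a TATAAA, as 7.59% of promoters do on the strand of the gene, and its best match to the repeat has 4 mismatches. Slc10a2, Nr1h4 and Gpbar1 also have 4 mismatches at best, which 50% of promoters reach. These matches are letters only and say nothing of binding.

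Sequencing depth ranged from 189340 to 4690210 reads on genes per library, with group medians between 1348670 and 1813400. A count of 3 reads, the limit that a count of 0 allows, was worth 0.61 to 23.3 CPM depending on the library. This limit covers counting error only. Defining tuft markers were present. Dclk1, Trpm5 and Siglecf had reads in all 45 libraries, and at least 12 of 14 listed tuft markers were read in each. Their summed level nevertheless spanned 340.4 to 26356 CPM. On HFD the listed tuft markers had a median log2 fold change of -0.94 at 9 weeks and -0.41 at 22 weeks, and the 6 Paneth cell markers had one of 2.29 and 1.38. None of them passed the test in either set, and their part in the results below was tested only by adding each list's mean to the model. Paneth markers took up to 32% of the reads of a library. Mouse numbers fall into 3 series, 1 to 8, multiples of 10, and others from 21 to 64, with 15, 13 and 15 libraries, and mice 84 and 65 lie outside them. Mice were killed over 3 days in a row, a cage of every group on each. Both diets occur in each series of each set. Whether the series match these days, these cages or the 3 experiments the mice came from is not given in the sources used here. Where the text below gives the difference within a series, it is for this reason.

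Per transcript length the exporter chains and Fabp6 led the list, and the hormone and the membrane receptor were among the lowest. In TPM, the share of transcripts scaled to a fixed total, Slc51a had group medians of 28.3 at 9 weeks on RFD, 29.97 on HFD, 62.2 at 22 weeks on RFD and 64.8 on HFD. Slc51b followed with 25.7, 10.6, 44.4 and 59.2 TPM in the same order of groups. Fabp6 had 5.40, 7.25, 21.9 and 81.6 TPM, which put it first of the 8 genes in the 22-week HFD group. Nr1h4 had 5.27, 6.19, 3.97 and 8.41 TPM. Nr0b2 had 0, 0.69, 1.05 and 5.44 TPM, and the medians of Slc10a2, Fgf15 and Gpbar1 stayed at or below 1.065 TPM in every group. Neighbours in this order overlapped. At 9 weeks Fabp6 exceeded Nr1h4 in 6 of 11 libraries on each diet. Fabp6 exceeded Slc51a in 7 of 12 libraries of the 22-week HFD group, and Slc51a exceeded Slc51b in 7 of those 12. A clear step lay below Slc51b in that group, since Slc51b exceeded Nr1h4 in all 12 libraries. With its median of 64.8 TPM, Slc51a stood above 96.3% of the 36153 genes with any read, while Nr1h4 at 8.41 TPM stood above 85.0%. The 2 sets were collected apart, so levels set across them are a description.

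**Figure D1:**
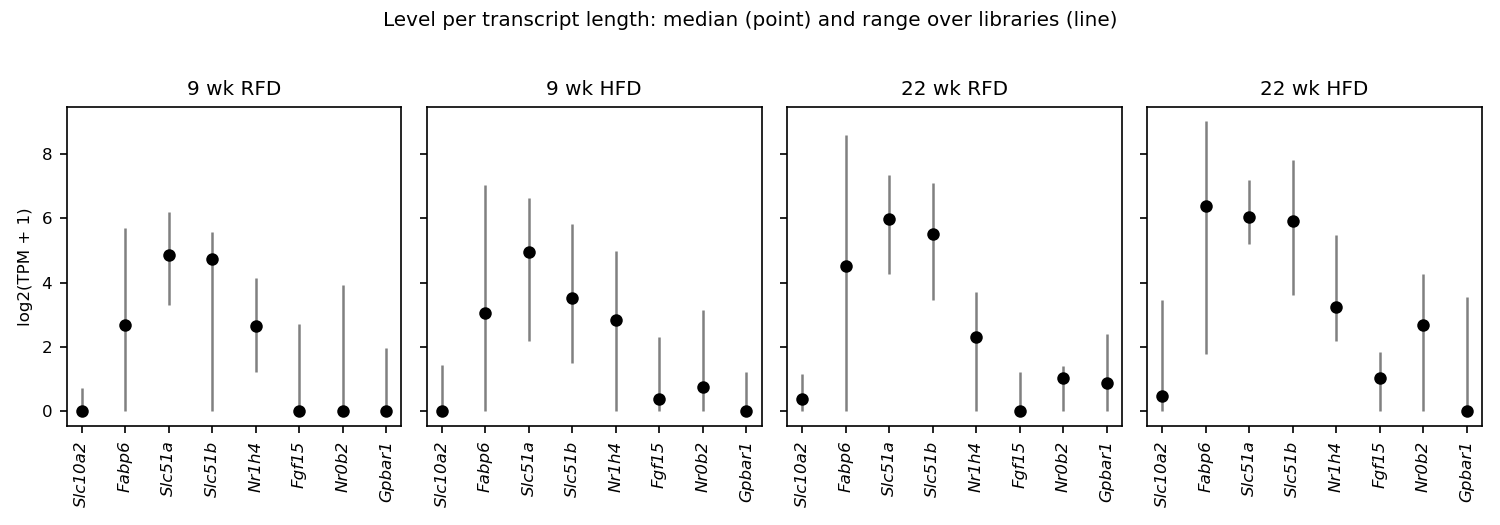
Level per transcript length of the 8 genes in the 4 groups, as log2(TPM + 1), with the median over the libraries of the group as a point and the lowest to highest library as a line. Slc51a, Slc51b and Fabp6 lie highest in each group, and Fabp6 has a range down to 0 TPM in 3 of the 4 groups.

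Of the 8 genes, none passed an adjusted p of 0.1 in either set, where p came from the quasi-likelihood test of edgeR and was adjusted after Benjamini-Hochberg over all 14020 genes. Among all genes tested, 3.32% passed at 9 weeks and 0.792% at 22 weeks. At an unadjusted p of 0.05, 0 of the 6 tested genes were below it at 9 weeks, where 18.0% of all genes were, and 2 of 6 at 22 weeks, where 10.3% were. Those 2 were Nr1h4 and Nr0b2, both higher on HFD. Nr0b2 entered the test only through HFD libraries, and Slc10a2 had 5 of its 6 libraries over 5 reads on HFD, so these counts do not support a direction for the genes as a group. In bulk samples fewer cells of a type and less RNA per cell cannot be told apart, for these or any other genes. Whether the diet difference itself differed between the sets was tested as an interaction over all 45 libraries. No gene of the 14020 passed it, which is 0% of them, and 3.22%, or 451 genes, had an unadjusted p under 0.05. None of the 6 genes was among these. Nr1h4 had an interaction of 0.94 ± 0.71 (SE) and Nr0b2 of 1.57 ± 1.47 on the log2 scale, each with an adjusted p of 1.00.

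**Figure D2:**
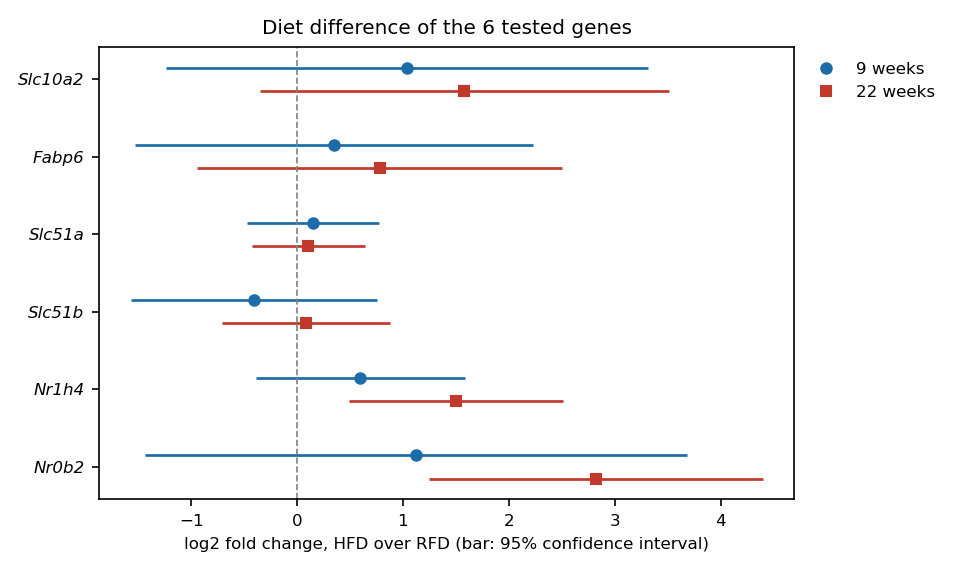
Log2 fold change of HFD over RFD for the 6 tested genes at 9 weeks (circles) and 22 weeks (squares), with 95% confidence intervals from the edgeR fit. The intervals are not adjusted for the number of genes tested. Those of Nr1h4 and Nr0b2 at 22 weeks lie above 0, and those of the other 4 genes include 0 in both sets. Neither gene passed, with adjusted p of 0.233 and 0.112 by edgeR, and 10.3% of all genes had an unadjusted p under 0.05 at 22 weeks. Nr0b2 entered the test only through HFD libraries.

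The uptake transporter Slc10a2 was at the edge of detection. It had 160 reads in all, at least 1 read in 26 of 45 libraries and more than 5 reads in 6, of which 5 were HFD libraries. At 9 weeks the lowest, median and highest library had 0, 0 and 3.79 CPM on RFD and 0, 0 and 9.31 CPM on HFD. At 22 weeks they had 0, 1.31 and 5.14 CPM on RFD and 0, 1.55 and 36.0 CPM on HFD. The groups overlapped almost fully in both sets, and the high end of each HFD group came from single mice. Mouse 60 gave 53.6% of the HFD reads at 9 weeks and mouse 80 gave 65.2% at 22 weeks. The fitted log2 fold change was 1.04 ± 1.11 (SE) at 9 weeks with an adjusted p of 0.666, and 1.58 ± 0.94 at 22 weeks with an adjusted p of 0.590, both by edgeR. It became 0.19 without mouse 60 and 0.42 without mouse 80.

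The cytosolic carrier Fabp6 varied more between mice than between diets. It had more than 5 reads in 25 of the 45 libraries, and 4 of 45 libraries had a read of neither Fabp6 nor Slc10a2. In the short set the lowest, median and highest library had 0, 1.28 and 14.3 CPM on RFD and 0, 2.57 and 31.7 CPM on HFD. At 22 weeks they had 0, 4.46 and 74.3 CPM on RFD and 0.40, 18.7 and 90.5 CPM on HFD. The diets overlapped over nearly their whole range, although 10 of 12 HFD mice at 22 weeks lay above the RFD median. The diet difference on the log2 scale was 0.35 ± 0.92 (SE, adjusted p = 0.886 by edgeR) at 9 weeks and 0.78 ± 0.83 (adjusted p = 0.807) at 22 weeks. The 95% interval of the fold at 22 weeks ran from 0.52 to 5.68. With limma on log2(TPM + 1) the 22-week value was 2.36 (adjusted p = 0.453), and on log2(TPM + 0.1) it was 3.53 (adjusted p = 0.514). Mouse 60 held 51 of the 91 reads of the 9-week HFD group, and without that mouse the 9-week value turned to -0.74.

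Fabp6 followed the series of mouse numbers at 22 weeks. The 4 RFD mice of the series 21 to 24 had no Fabp6 read at all, where 3 reads would have been 1.96 to 2.30 CPM, while the 4 HFD mice numbered 31 to 34 had 0.40 to 17.9 CPM. In the multiples of 10, 3 RFD mice had 5.13 to 74.3 CPM and 3 HFD mice 43.7 to 90.5 CPM. In the series 1 to 8, 4 RFD mice had 1.62 to 43.8 CPM and 4 HFD mice 0.76 to 53.0 CPM. The difference of the mean log2 CPM, HFD minus RFD, was 0.49, 1.37 and 3.06 in the series 1 to 8, multiples of 10, and 21 to 34. With the series as a term the log2 fold change was 1.497, with an adjusted p of 0.405. In the 9-week mice the same differences were 0.74, 1.404 and -1.45, so the series did not share a direction.

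**Figure D3:**
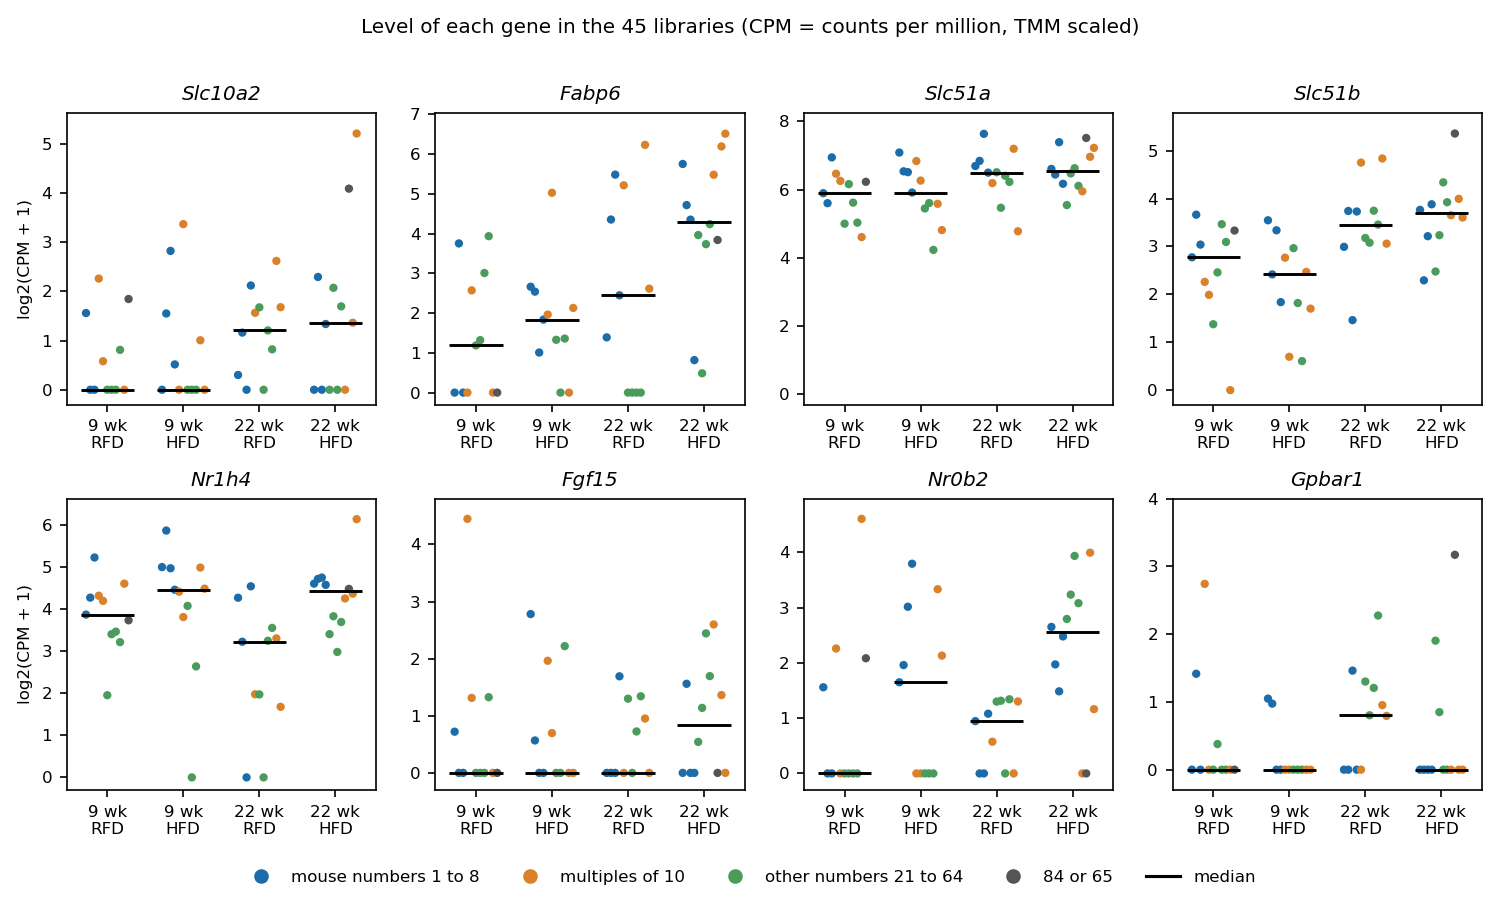
Level of each of the 8 genes in the 45 libraries as log2(CPM + 1), 1 point per mouse, coloured by the series of its mouse number, with the group median as a line. Slc51a is well above 0 in every library, Fabp6 spreads from 0 to 90.5 CPM, and Slc10a2, Fgf15 and Gpbar1 lie at 0 in many libraries.

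The exporter chains Slc51a and Slc51b had diet differences near 0 at 22 weeks, and so had Slc51a at 9 weeks. Slc51a had reads in all 45 libraries. At 9 weeks its lowest, median and highest library had 23.3, 58.4 and 121.9 CPM on RFD and 17.8, 59.2 and 134.6 CPM on HFD. At 22 weeks they had 26.4, 89.2 and 197.3 CPM on RFD and 45.7, 92.0 and 181.3 CPM on HFD. The groups overlapped throughout, with 6 of 11 and 6 of 12 HFD mice above the RFD median. The fold change on the log2 scale was 0.15 ± 0.31 (SE, adjusted p = 0.848 by edgeR) at 9 weeks and 0.11 ± 0.26 (adjusted p = 0.932) at 22 weeks. The intervals of the fold ran from 0.72 to 1.71 and from 0.74 to 1.56, so larger differences than these were outside them. Without HFD mouse 5 the 9-week value was -0.01.

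Slc51b was lower in reads and wider in spread. In the short set its lowest, median and highest library had 0, 5.84 and 11.7 CPM on RFD and 0.52, 4.34 and 10.7 CPM on HFD. At 22 weeks they had 1.75, 9.97 and 27.6 CPM on RFD and 3.90, 12.1 and 39.98 CPM on HFD. 8 of 11 HFD mice at 9 weeks lay below the RFD median, and 8 of 12 at 22 weeks lay above it. On the log2 scale the difference was -0.41 ± 0.57 (SE, adjusted p = 0.763 by edgeR) and 0.08 ± 0.39 (adjusted p = 0.964). At 22 weeks the sign depended on single mice. The value was -0.16 without mouse 65, the HFD mouse with the highest level, and -0.04 without RFD mouse 3. Per transcript length the beta chain was usually below the alpha chain. The ratio of Slc51b to Slc51a in TPM had group medians of 0.46, 0.35, 0.93 and 0.87 in the order of groups above, and Slc51b exceeded Slc51a in 14 of 45 libraries. Both chains had a read in 44 libraries.

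The bile acid receptor FXR, gene Nr1h4, was read in nearly all libraries and had the smallest p of the 4 genes with more than 5 reads in most libraries. At 9 weeks the lowest, median and highest library had 2.87, 13.6 and 36.5 CPM on RFD and 0, 21.02 and 57.4 CPM on HFD. At 22 weeks they had 0, 8.35 and 22.3 CPM on RFD and 6.90, 20.5 and 69.4 CPM on HFD. 11 of 12 HFD mice at 22 weeks lay above the RFD median and 5 lay above every RFD mouse, while the remaining HFD mice overlapped with the RFD range. The log2 fold change at 22 weeks was 1.5 ± 0.50 (SE), a fold of 2.83 with a 95% interval of 1.403 to 5.71. Its p of 0.00501 ranked 300th of 14020 genes and gave an adjusted p of 0.233 by edgeR, which did not pass. In the 9-week mice the log2 fold change was 0.60 ± 0.48, with an adjusted p of 0.540.

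Within the series of mouse numbers at 22 weeks, Nr1h4 was higher on HFD by 1.64, 2.59 and 1.27 in mean log2 CPM, for 1 to 8, multiples of 10, and 21 to 34. In the first series the 4 HFD mice had 22.9 to 25.9 CPM and the 4 RFD mice 0 to 22.3 CPM. In the multiples of 10 the 3 HFD mice had 18.1 to 69.4 CPM and the 3 RFD mice 2.20 to 8.88 CPM. In the series 21 to 34 the 4 HFD mice had 6.90 to 13.2 CPM and the 4 RFD mice 0 to 10.7 CPM, with overlap. These are the mice of the fit above, so the ranges add no separate evidence. How many of all genes separate as far within a series was not counted. At 9 weeks the series differed in sign, with 0.62, 0.05 and -0.76. Nr1h4 at 22 weeks passed in 2 of 12 other ways of processing: without the filter on low counts, where the adjusted p was 0.0894 and 1.26% of 34543 genes passed, and by the DESeq2 Wald test, with an adjusted p of 0.0573. Leaving out RFD mouse 1 also brought the adjusted p to 0.0618, and leaving out any other mouse did not bring it under 0.1. With the mean level of the enterocyte markers in the model the log2 fold change was 1.38, with that of the tuft markers 1.43 and with that of the Paneth markers 1.52.

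**Figure D4:**
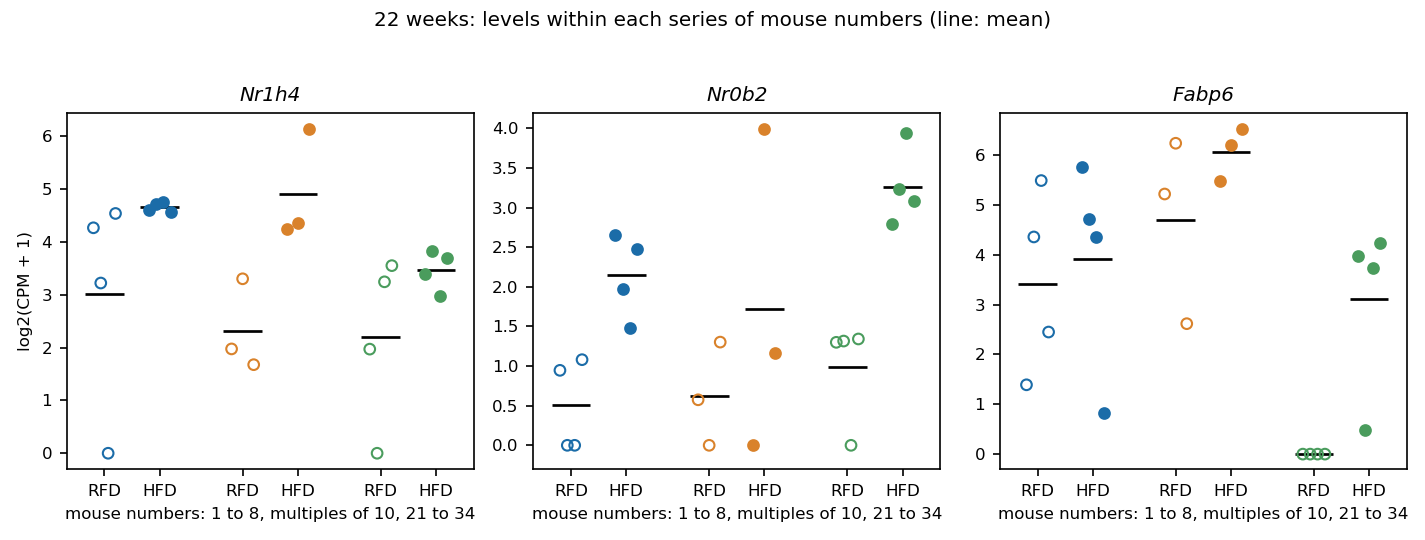
Nr1h4, Nr0b2 and Fabp6 at 22 weeks as log2(CPM + 1), split by the series of mouse numbers (1 to 8, multiples of 10, 21 to 34), with open points for RFD, filled points for HFD and a line for the mean. For Nr1h4 and Nr0b2 the HFD mean lies above the RFD mean in all 3 series. Nr0b2 entered the test only through HFD libraries. For Fabp6 the 4 RFD mice of the last series are all at 0.

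Nr0b2, which encodes the repressor SHP, had the largest fold change of the 8 genes, on few reads. It had 229 reads in all. More than 5 reads were found in 11 of 23 HFD libraries and in 0 of 22 RFD libraries, so this gene entered the test only through HFD mice, and a difference in that direction was built into its entry. In the short set the lowest, median and highest library had 0, 0 and 23.3 CPM on RFD and 0, 2.14 and 12.9 CPM on HFD. The value of 23.3 CPM was 3 reads in the shallowest library. At 22 weeks they had 0, 0.93 and 1.53 CPM on RFD and 0, 4.93 and 14.9 CPM on HFD. 9 of 12 HFD mice at 22 weeks lay above every RFD mouse, and 2 had no read. Summed over mice these were 14 reads on RFD and 134 on HFD, a ratio per depth of 8.08 with a counting interval of 4.65 to 15.2 that leaves out the spread between mice.

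The fitted log2 fold change of Nr0b2 at 22 weeks was 2.82 ± 0.77 (SE), a fold of 7.07 with a 95% interval of 2.37 to 21.1. Its p of 0.000975 ranked 122nd of 14020, and its adjusted p of 0.112 by edgeR did not pass. In the 9-week mice the log2 fold change was 1.12 ± 1.25 with an adjusted p of 0.682, and it was 2.11 without the shallowest library. Within the series at 22 weeks the difference of mean log2 CPM was 1.61, 1.083 and 2.25. In the series 1 to 8, 4 HFD mice had 1.80 to 5.28 CPM and 4 RFD mice 0 to 1.11 CPM. In the series 21 to 34, 4 HFD mice had 5.94 to 14.3 CPM and 4 RFD mice 0 to 1.53 CPM. In the multiples of 10, 3 HFD mice had 0 to 14.9 CPM and 3 RFD mice 0 to 1.47 CPM, with overlap. Here too the mice are those of the fit, and the share of all genes that separate as far was not counted. At 9 weeks the 7 mice of both diets in the series 21 to 64 had no read of Nr0b2. The 22-week call was made in 4 of 10 other ways of processing, with adjusted p between 0.0625 and 0.443 over all of them. These 4 were the fits without a filter (0.0883), with the number series (0.0625), with the enterocyte markers (0.0968) and with the tuft markers (0.0811). Leaving out any of mice 1 and 3 on RFD or 50 and 65 on HFD also brought the adjusted p under 0.1. Since Nr0b2 entered the test only through HFD libraries, neither its p nor these calls count as support for a rise. Of 39 libraries with more than 5 reads of Nr1h4, 16 had no read of Nr0b2.

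The hormone Fgf15 and the membrane receptor Gpbar1 failed the filter on low counts and were not tested. Fgf15 had more than 5 reads in 5 libraries, 4 of them on HFD. At 9 weeks its highest library had 20.8 CPM on RFD, from 10.75 estimated reads in mouse 10, and 5.87 CPM on HFD, and both medians were 0. At 22 weeks the lowest, median and highest library had 0, 0 and 2.23 CPM on RFD and 0, 0.83 and 5.06 CPM on HFD, where 3 HFD mice exceeded every RFD mouse. Of the 25 libraries with more than 5 reads of Fabp6, 12 had at least 1 read of Fgf15. Gpbar1 had 39 reads in all. At 22 weeks 7 of 11 RFD libraries and 3 of 12 HFD libraries had a read, with highest values of 3.84 and 7.997 CPM, and at 9 weeks 3 and 2 of 11 had a read. Without the filter the log2 fold change at 22 weeks was 1.3 ± 0.98 (SE) for Fgf15, with an adjusted p of 0.657, and -0.19 ± 0.98 for Gpbar1, with an adjusted p of 0.980, both by edgeR.

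Other genes of the pathway were counted from lists drawn up by known function, with earlier results of these data known. Of 14 genes for making and conjugating bile acids, 7 were tested. Among all genes tested, 3.32% passed at 9 weeks and 0.792% at 22 weeks. Of the 7, Hsd17b4 passed in both sets. This gene encodes the peroxisomal D-bifunctional protein, which shortens fatty acid and bile acid side chains. Its mean was 67.1 ± 30.8 CPM (SD, n = 11) on RFD and 160.8 ± 53.6 CPM (SD, n = 11) on HFD at 9 weeks, a log2 rise of 1.28 ± 0.27 (SE, adjusted p = 0.0291 by edgeR). At 22 weeks it was 68.5 ± 52.0 CPM (SD, n = 11) on RFD and 170.7 ± 56.3 CPM (SD, n = 12) on HFD, a log2 rise of 1.33 ± 0.29 (SE, adjusted p = 0.026). Cyp7a1, the gene of the rate-limiting enzyme in the liver, had more than 5 reads in 8 libraries and did not pass, with log2 fold changes of -1.09 (adjusted p = 0.666) and 0.33 (adjusted p = 0.946). The 9-week result of Hsd17b4 was lost in 5 of 13 other ways of processing. One of these had the tuft markers in the model, where its log2 fold change was 0.93 with an adjusted p of 0.411.

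Of 12 other transporters of bile acids and sterols, 9 were tested and 0 passed in either set. The smallest p in both sets belonged to Abcg2, an efflux pump of the apical membrane. HFD over RFD, it differed on the log2 scale by 0.76 ± 0.30 (SE, adjusted p = 0.177 by edgeR) at 9 weeks and 1.06 ± 0.31 (adjusted p = 0.139) at 22 weeks. Of 12 other bile acid receptors and nuclear partners, 11 were tested and 0 passed. Vdr, the vitamin D receptor, which also binds a bile acid, had 0.62 ± 0.24 (adjusted p = 0.163) at 9 weeks, and Nr1h2, the oxysterol receptor LXR beta, had -0.63 ± 0.19 (adjusted p = 0.169) at 22 weeks. Of 6 genes of FGF15 signalling and its control, 5 were tested and 0 passed. Malrd1, which is known to raise FGF15 output, had -0.77 ± 0.32 (adjusted p = 0.196) at 9 weeks, and Fgfr1, a growth factor receptor, had 0.95 ± 0.80 (adjusted p = 0.737) at 22 weeks.

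Of 7 other genes that FXR is known to induce in the ileum, all were tested. 0 rose and 2 fell at 9 weeks, and 0 passed at 22 weeks. Among all 14020 genes, 280 rose and 186 fell at 9 weeks, which is 3.32% together, and 0.792% passed at 22 weeks. Il18, a cytokine gene, fell at 9 weeks with a log2 fold change of -1.085, from 25.7 ± 14.04 to 11.9 ± 4.68 CPM (SD, n = 11 each, adjusted p = 0.0962 by edgeR). The other was Nos2, the inducible nitric oxide synthase gene, which went from 45 reads in 7 of 11 RFD libraries to 2 reads in 1 of 11 HFD libraries (adjusted p = 0.0626 by edgeR). The ratio per depth, RFD over HFD, was 21.7 with a counting interval of 5.67 to 184.8. Il18 lost its call in 9 of 13 other ways of processing and when any of 18 of the 22 mice was left out. Nos2 lost it in 5 of 11 and when any of 6 mice was left out. The other 5 genes had adjusted p of 0.121 or more at 9 weeks, and 4 of the 7 had a log2 fold change above 0. Ang and Sdc1 were higher on HFD, with log2 fold changes of 1.41 (adjusted p = 0.121 by edgeR) and 1.00 (adjusted p = 0.157). At an unadjusted p under 0.05, 2 of the 7 were higher and 2 lower at 9 weeks, where 18.0% of all genes were under it. The list thus had no common direction.

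Several of the 8 genes mark the ileum, so regional markers were set beside them. Of 8 other ileum markers, all were tested. 0 passed at 9 weeks, and 0 rose and 2 fell at 22 weeks. Among all 14020 genes, 61 rose and 50 fell at 22 weeks, which is 0.792% together. The 2 ileum markers that fell were Nts and Pyy, which encode the gut peptides neurotensin and peptide YY and are made by enteroendocrine cells. Nts had 1410 reads in 8 of 11 RFD libraries and 3 reads in 2 of 12 HFD libraries at 22 weeks, a ratio per depth of 557 with a counting interval of 190.1 to 2703 (adjusted p = 0.000788 by edgeR). Pyy had 238 reads in 6 of 11 RFD libraries and none in 12 HFD libraries, at least 94.0-fold lower when 3 reads are taken as the limit over the HFD group (adjusted p = 0.0485 by edgeR). The call was lost in 4 of 10 other ways of processing for Pyy and in 1 of 12, the Wilcoxon test, for Nts. The other 6, Cubn, Amn, Clec2h, Mep1a, Naaladl1 and Osr2, had log2 fold changes of -0.15 to 0.88 at 22 weeks and did not pass. The enteroendocrine markers Cck and Gcg fell too at 22 weeks, by edgeR, with adjusted p of 0.0062 and 0.0279. All 7 enteroendocrine markers were tested, their summed level was 126.2 to 1003 CPM on RFD and 72.7 to 316.2 CPM on HFD, and their part in the 2 peptide results was not tested.

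Of 10 duodenum and jejunum markers, all were tested and 0 passed in either set. Creb3l3, a transcription factor gene of lipid handling, had 0.76 ± 0.29 (SE, adjusted p = 0.167 by edgeR) at 9 weeks, and Apoa4, a lipoprotein gene, had 0.83 ± 0.35 (adjusted p = 0.414) at 22 weeks. The summed level of the 10 markers had group medians of 6636 to 11001 CPM, and that of the 8 ileum markers 260.9 to 510.1 CPM. Most of the first sum came from Fabp1 and Apoa4, with group medians of 4541 to 7478 CPM and 1770 to 3820 CPM. Other proximal markers included Pdx1 at 0 to 0.30 CPM, Gata4 at 9.58 to 23.96 CPM and Lct at 67.8 to 195.8 CPM. Ileum markers spread as well, with Pyy at 0 to 0.77 CPM, Cubn at 9.11 to 20.8 CPM and Naaladl1 at 78.8 to 213.9 CPM. The summed level of the 8 bile acid genes had group medians of 86.3 to 151.9 CPM.

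How the genes varied from mouse to mouse was described with Spearman's rho over the libraries of a set, after the group mean of each diet was taken off. Libraries of a set differ in depth and in cell make-up, which all genes of a library share, and the values are descriptions over 22 and 23 libraries. The genes most like Slc51a of all 14020 were Mogat2, a triglyceride synthesis gene, with 0.83 at 9 weeks and 0.79 at 22 weeks, Smim24 with 0.87 and 0.71, and Enpep, a brush border peptidase gene, with 0.75 and 0.82. Slc51a followed the mean of the 12 enterocyte markers, of which Enpep is a member, with 0.87 and 0.63. Nr1h4 was most like Abcg2, with 0.67 and 0.84, then Nqo2 with 0.75 and 0.66 and Spcs2 with 0.70 and 0.71. It ran against the mean of the tuft markers, with -0.62 and -0.30.

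The remaining genes had weaker or thinner partners. Fabp6 was most like Ssr4, Atpif1 and Ovol2, with mean rho of 0.49, 0.49 and 0.48 over the sets, and had 0.05 and -0.02 with the enterocyte markers. Slc51b was most like Gm43511, Gm26764 and Heph, an intestinal iron export gene, with 0.63, 0.61 and 0.60. Slc10a2 was most like Gm10803, Rsf1os2 and B930025P03Rik, with 0.69, 0.63 and 0.63, and Nr0b2 was most like Adgrg4, A430110L20Rik and Igdcc4, with 0.61, 0.61 and 0.59. Both have no read in many libraries, so shared zeros enter these values. Among the 8 genes, Nr1h4 and Nr0b2 had 0.58 at 9 weeks and -0.40 at 22 weeks, and Slc51a and Slc51b had 0.43 and 0.16. Fabp6 and Slc10a2, both ileal genes, had 0.00 and 0.11.

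**Figure D5:**
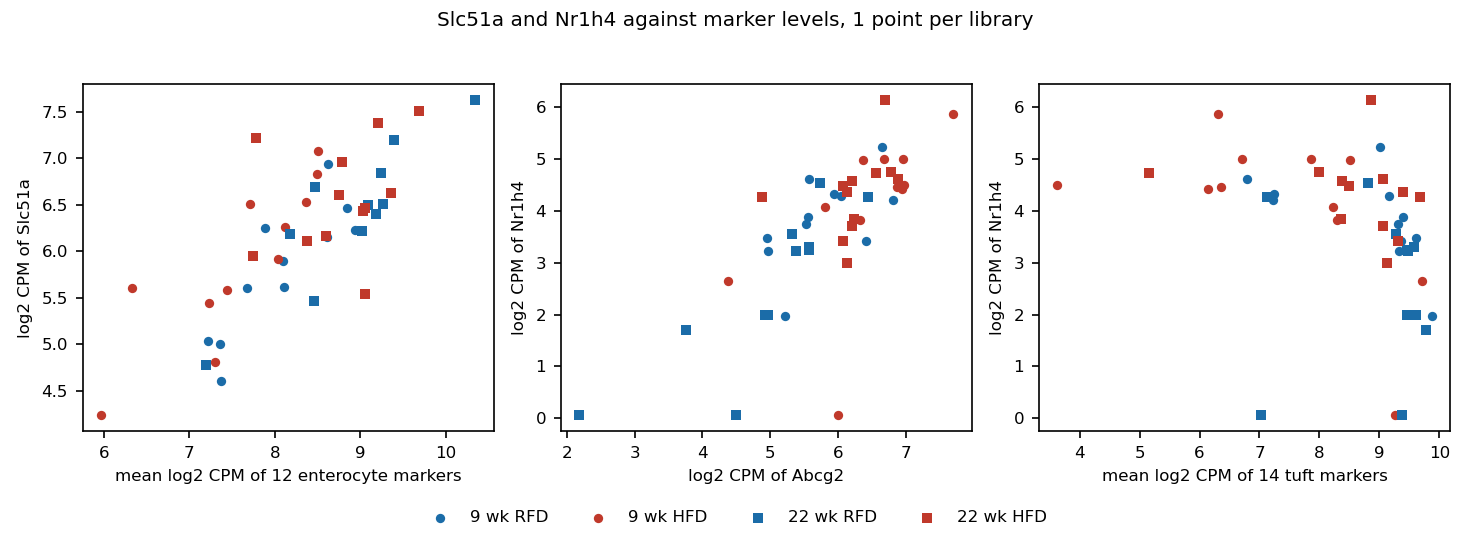
Log2 CPM of Slc51a against the mean of 12 enterocyte markers (left), of Nr1h4 against Abcg2 (middle) and of Nr1h4 against the mean of 14 tuft markers (right), 1 point per library, with circles for 9 weeks and squares for 22 weeks. Slc51a is higher in libraries with more enterocyte marker RNA in both sets, with a diet-centred rho over both diets of 0.87 at 9 weeks and 0.63 at 22 weeks.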

How the data were processed

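Tuft cells of 45 mice, 1 library each, were sequenced. The authors trimmed reads with Cutadapt 1.15, aligned them to GRCm38 with STAR 2.6.0 and counted them with RSEM, whose version is not given in the sources used here. They deposited expected counts and TPM per gene. Of the expected counts, 8.79% were not whole, and these were rounded here. 24 of 69 count columns matched no sample and were not used, nor were FPKM tables. The authors' weighting by cell type was not repeated. Groups came from the labels. Mice of a group are separate animals housed 4 to a cage. Which mice shared a cage is not given in the sources used here, so cage mates were tested as independent.

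Genes with more than 5 reads in at least 6 of 45 libraries were tested with the robust quasi-likelihood test of edgeR 4.0.16 (R 4.3.3) after TMM scaling, each set alone, with the interaction fitted over both. Calls were made at a Benjamini-Hochberg adjusted p under 0.1. CPM values are TMM scaled. limma 3.58.1 and DESeq2 1.42.0 served as alternatives. The scripts were tested on simulated counts. Floors of 3 reads and 95% counting intervals cover counting error only. The members and gene lists were chosen with earlier results of these data known. Named were all 8 members, of each list the genes past the threshold or else the smallest p in each set, and the 3 genes most like each tested member. Cyp7a1, Ang, Sdc1, Cck, Gcg, Pcyt1a, Fabp1, Pdx1, Gata4, Lct and the 6 remaining ileum markers were added after their values were seen.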

Additional observations from a re-analysis of the deposited data

How the results depend on the processing

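The number of genes passing depended strongly on the processing, and the cause was not tested. Against 466 genes at 9 weeks and 111 at 22 weeks, the DESeq2 Wald test gave 1555 and 347, the Wilcoxon test 0 and 0 (3016 and 1925 at an unadjusted p under 0.05), limma on log2(TPM + 1) 9 and 51, limma on log2(TPM + 0.1) 5 and 31, no filter 1698 and 435, and the enterocyte markers as a covariate 2225 and 170. The tuft markers as a covariate gave 14 and 175. At 9 weeks the stricter filter gave 731, leaving out libraries under 500000 reads 290 and the Paneth markers as a covariate 18, and at 22 weeks the number series as a term gave 185. Leaving out 1 mouse gave 59 (without HFD mouse 6) to 1996 (without HFD mouse 64) at 9 weeks and 58 (without RFD mouse 10) to 667 (without RFD mouse 1) at 22 weeks. The interaction gave 65 genes without a filter, 1 without the robust option and 0 to 3 when 1 mouse was left out. The fit without the robust option and the Paneth covariate were chosen after seeing the data.

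At 9 weeks the log2 fold changes of 4 genes changed sign under some alternatives, among them Nr0b2, the largest of the 6 at 1.12, and Nr1h4 at 0.60. Fabp6 was -0.24 with the number series, -0.18 with the Paneth markers and -0.74 to 0.77 when 1 mouse was left out. Slc51a was -0.015 with limma on log2(TPM + 1), -0.033 on log2(TPM + 0.1), -0.00996 with the number series, -0.034 without libraries under 500000 reads and -0.0091 to 0.31 when 1 mouse was left out. Nr1h4 was -0.072 with limma on log2(TPM + 0.1) and -0.086 with the tuft markers, and Nr0b2 was -0.20 with the tuft markers. At 22 weeks Slc51b was -0.039 with the number series, -0.040 without RFD mouse 3 and -0.16 to 0.30 when 1 mouse was left out. Nr1h4 at 22 weeks stayed between 1.38 and 2.32 over 12 alternatives and between 1.19 and 1.78 when 1 mouse was left out. Nr0b2, which entered the test only through HFD libraries, stayed between 1.51 and 2.88 over 10 alternatives. It lay between 2.59 and 2.97 when 1 mouse was left out. Fabp6 at 22 weeks ranged from 0.78 to 3.53 and Slc10a2 at 9 weeks from 0.14 to 1.86, none of them past the threshold.

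DESeq2 gave no adjusted p for Slc10a2 or Nr0b2 in either set, nor for Fabp6 and Slc51b at 9 weeks. Slc10a2 and Nr0b2 do not pass the stricter filter. No library at 22 weeks has under 500000 reads, and the Wilcoxon test has no interaction. No paired analysis was possible because the diet groups are separate mice and no label matches an RFD mouse to an HFD mouse. The number series, fitted as a term, is the nearest to a block, and what it marks is not given.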
